A study of Mus musculus with 6 samples.

Results

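The genes that carry glucose through glycolysis, feed pyruvate into the tricarboxylic acid (TCA) cycle and supply NADPH were followed in chromatin accessibility data of mouse brown pre-adipocytes, from which brown fat cells form. They are 46 named enzymes, isoforms, regulators and a glucose transporter among 21883 protein-coding genes of the mm10 annotation. Peaks were attached to them by position alone: a peak counted for a gene when its summit lay nearest to an annotated start or end of that gene, within 100 kb. A summit within 1 kb of such an end is called a gene-end peak here, and one farther away is called distal. The assay was ATAC-seq: a transposase cuts DNA that is not packed away and tags the cut ends for sequencing. The 6 libraries came from a cell line labelled BAT, 3 at day 0, labelled WT, and 3 at day 1, labelled only by that day of brown adipocyte differentiation. The series is titled for deletion of RUNX1 or RUNX2, and no sample labelled as deleted was analysed here. The labels name neither the differentiation agents nor separate cultures, so each p-value rests on the spread among the libraries alone, and that spread may be technical. The cells were measured in bulk, so fewer cells with an open site and less opening per cell cannot be told apart.

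In glycolysis, a transporter and hexokinases bring glucose in and trap it, phosphofructokinase commits it, and pyruvate kinase ends the path at pyruvate. Pyruvate becomes lactate, or is passed toward the TCA cycle inside mitochondria by the pyruvate dehydrogenase complex, which pyruvate dehydrogenase kinases switch off. The pentose phosphate path, NADP-linked malic enzymes and isocitrate dehydrogenases, and some folate enzymes yield NADPH, the reductant that fat cells spend on fatty acid synthesis. Genes are grouped by path, and not every gene of the NADPH group encodes an enzyme that yields it. Brown fat is known for high glucose uptake and for a dense set of mitochondria that turn fuel into heat.

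The headers give 11011889, 8127635 and 9160156 fragments for the day 0 libraries. Day 1 had fewer in each, 4919755, 5603667 and 7302457. The lists held 39211 to 55511 peaks at day 0 and 12556 to 23274 at day 1. Depth and list length therefore moved with the day, and counts are given both for the deposited lists and for equal lists, the 12556 strongest peaks by q of each library. Day 1 replicate 3 had the shortest list and the lowest summits in shared regions, 1.78 fragments per 1000000 against 2.62 to 3.94 elsewhere. Of 9 genes fixed as precursor markers, 4, 4 and 4 had a gene-end peak at day 0 and 2, 3 and 2 at day 1, and Pdgfra, Cd34, Prrx1, Thy1 and Dlk1 had none in any library. Of 5 mature adipocyte markers, 1, 1 and 1 had one at day 0 and 2, 4 and 3 at day 1, and Ucp1, the uncoupling protein of brown fat, had none. Among 6 immune markers, 2, 1 and 2 had a gene-end peak at day 0 and none at day 1, with Ptprc, Adgre1, Cd3e and Itgam at none. The 6 endothelial markers gave 1, 1 and 1 against 0, 1 and 0, and the 4 muscle markers 2, 0 and 0 against none. For all coding genes the deposited share with a gene-end peak was 39.8% to 45.3% at day 0 and 27.6% to 37.0% at day 1. In equal lists that share was 22.1% to 23.2% and 27.4% to 29.1%. The precursor markers there gave 2, 2 and 1 against 1, 0 and 2, and the mature adipocyte markers 0, 0 and 0 against 2, 3 and 3. No immune, endothelial or muscle marker had a gene-end peak in equal lists. The part of these cell types in the results below was not tested.

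Most of these metabolic genes were open at a gene end on both days. A gene-end peak stood in all 6 deposited lists for 28 of the 46 genes (60.9%), against 23.5% of all coding genes. No library had one for 9 genes (19.6%), against 49.8% of all coding genes. By library, 36, 35 and 34 of the 46 genes had a gene-end peak at day 0 and 31, 34 and 30 at day 1. The days overlapped, and the difference of -3.33 genes was not separable from the spread between libraries (35.0 ± 1.00 and 31.7 ± 2.08, SD, n = 3 each; exact two-sided permutation p = 0.2). Over all coding genes, the share with a gene-end peak was 39.8% to 45.3% per day 0 library and 27.6% to 37.0% per day 1 library. In equal lists the order turned, with 23, 25 and 25 genes at day 0 and 28, 32 and 30 at day 1. Those ranges did not overlap (24.3 ± 1.15 and 30.0 ± 2.00, SD, n = 3 each), and the exact two-sided permutation p was 0.1, the smallest that 3 libraries against 3 can give. The difference of 5.67 genes shrank to 1.50, with overlap, when day 1 replicate 3 was left out and lists ran to 20069 peaks (31, 31 and 31 against 31 and 34), to 2.33, with overlap, at -log10 q of at least 5 (21, 22 and 21 against 24, 22 and 25), and to 1.67, with overlap, in lists of 6000 (19, 19 and 18 against 19, 20 and 22). The equal-list share of all coding genes also stood higher at day 1, 27.4% to 29.1% against 22.1% to 23.2%.

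**Figure D1:**
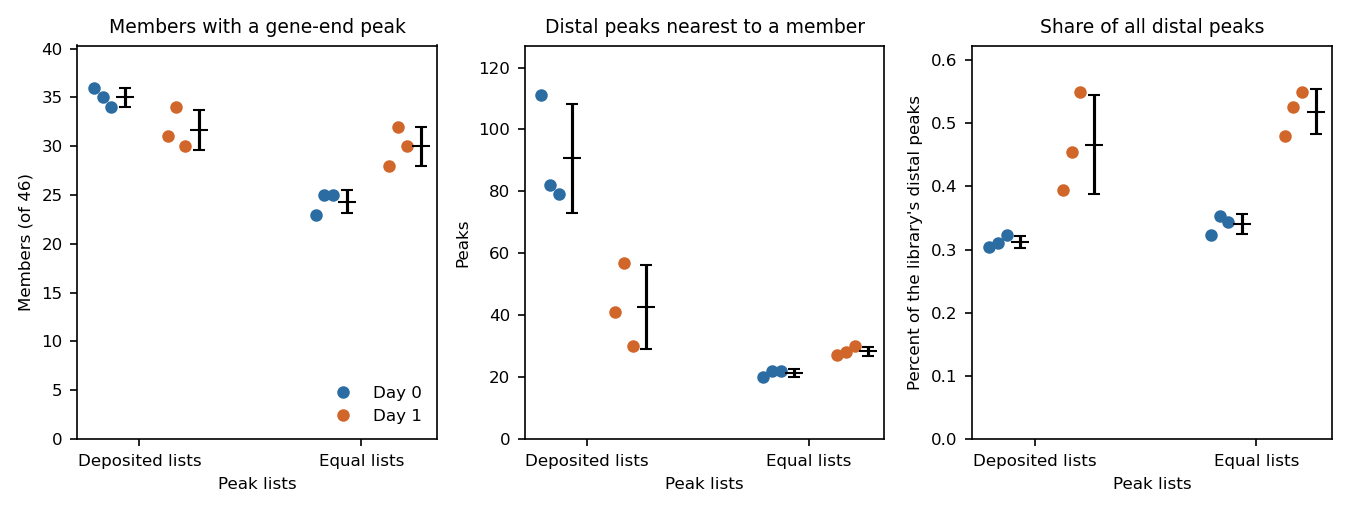
Each point is 1 library, blue for day 0 and orange for day 1, and bars are the mean ± SD (n = 3). Left, members of the 46 with a gene-end peak; middle, distal peaks nearest to a member; right, those peaks as percent of all distal peaks of the library; each is given for deposited lists and for equal lists of 12556 peaks. Counts are lower at day 1 in deposited lists for distal peaks and higher in equal lists, and the share of distal peaks is higher at day 1 in both.

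Heights are given below as relative summit height, the fragments at the summit plus 1, divided by the typical height of the same library over the 9136 regions that have a peak in all 6 libraries. A value of 1 is the height of a typical shared region, whatever the depth of the library. The lowest value that a called peak can take differs between libraries. The median shared summit held 42.5, 32 and 24 fragments at day 0 and 18, 22 and 13 at day 1. A weak peak of a given fragment number therefore stands higher on this scale at day 1. How far that shaped the comparisons of weak peaks was not tested. Over the 28 genes open in all libraries the relative height ran from 0.368, at Sucla2 in day 1 replicate 1, to 3.05, at Aco1 in day 1 replicate 1.

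**Figure D2:**
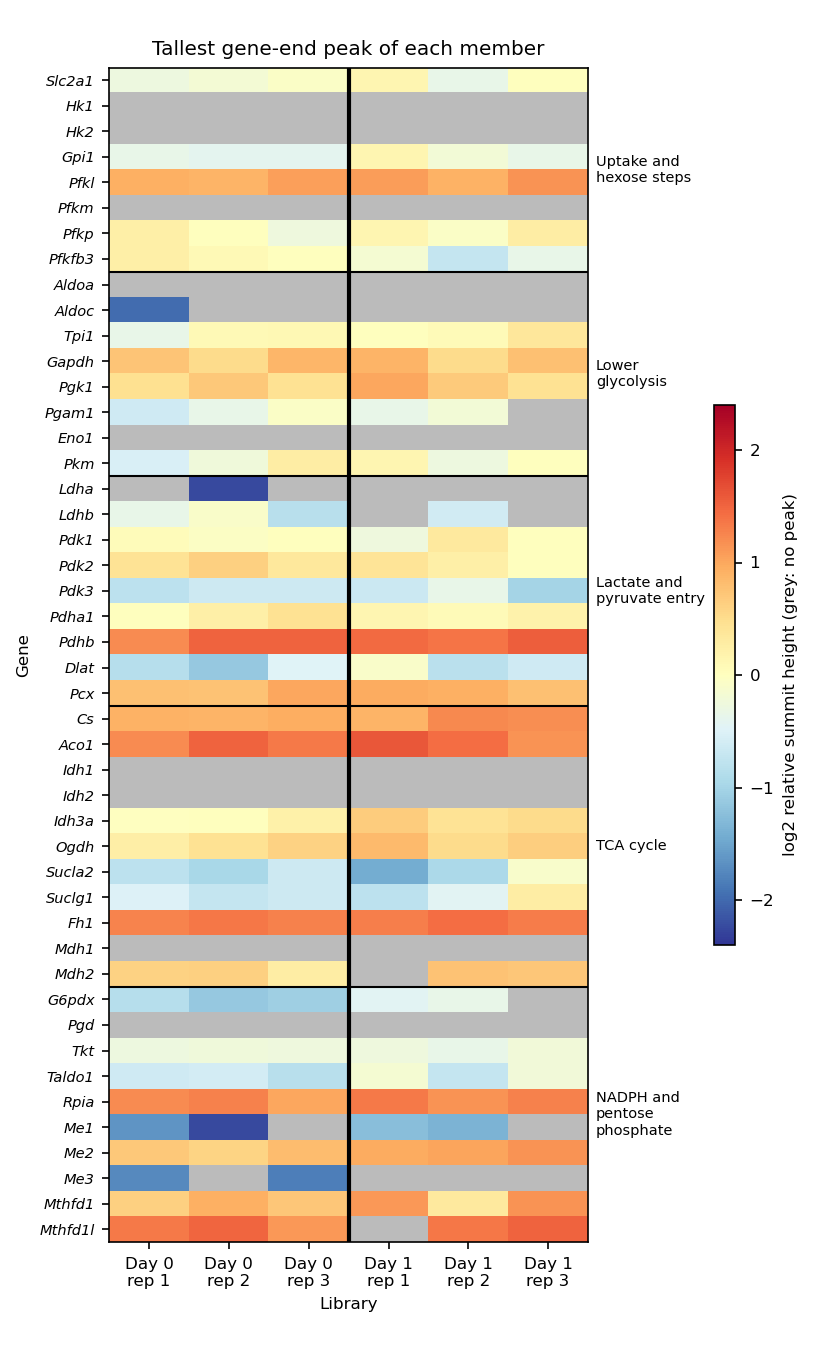
Rows are the 46 genes in pathway order and columns the 6 libraries; colour gives the log2 relative summit height of the tallest gene-end peak, where 0 is a typical shared region, and grey marks a library with no gene-end peak. Most rows are filled across both days, 9 rows are grey throughout, and rows such as Pdhb, Fh1 and Rpia stay red from day 0 to day 1.

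Among the genes of glucose uptake and the hexose steps, 5 of 8 had a gene-end peak in every library, and Hk1, Hk2 and Pfkm had none. Pfkl, the liver-type phosphofructokinase, was the tallest of this group, with relative heights of 1.91, 1.85 and 2.08 at day 0 and 2.11, 1.87 and 2.21 at day 1. Slc2a1, which encodes a glucose transporter, stood near the typical height on both days, 0.828, 0.879 and 0.960 against 1.11, 0.783 and 1.00. Pfkfb3, whose enzyme makes the activator fructose 2,6-bisphosphate, had 1.17, 1.06 and 1.00 at its start at day 0 and 0.895, 0.609 and 0.786 at day 1. Every day 1 value at the Pfkfb3 start was below every day 0 value, and the log2 difference of -0.51 ± 0.22 (SE) did not pass the test across all shared regions (limma adjusted p = 0.103).

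In lower glycolysis, 4 of 8 genes were open at an end in all libraries: Tpi1, Gapdh, Pgk1 and Pkm. Gapdh, which makes the NADH of glycolysis, reached 1.68, 1.42 and 1.84 at day 0 and 1.84, 1.43 and 1.71 at day 1, ranges that overlap. Pgk1, which yields the first ATP, gave 1.38, 1.64 and 1.36 against 2.00, 1.61 and 1.36. Pgam1, the phosphoglycerate mutase, lacked a peak only in day 1 replicate 3, the shortest list. Aldoa and Eno1 had no gene-end peak, and Aldoc had one in day 0 replicate 1 alone, at 0.253.

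The genes of lactate and pyruvate entry held the one member whose gene end was called in 3 of 3 libraries of one day and at most 1 of the other. Ldhb, a lactate dehydrogenase subunit, had relative heights of 0.782, 0.939 and 0.560 at day 0, and a peak of 0.652 in day 1 replicate 2 with none in the other day 1 libraries. The single day 1 peak lay within the day 0 range. This was 1 of 46 genes (2.17%), against 5.98% of all coding genes, and the mirror pattern was met by none of the 46, against 0.302%. Pdhb, the beta subunit of the pyruvate dehydrogenase core enzyme, was among the tallest members, with 2.32, 2.85 and 2.84 at day 0 and 2.74, 2.61 and 2.93 at day 1. Pdha1, the alpha subunit, gave 1.01, 1.18 and 1.36 against 1.11, 1.04 and 1.14, and Dlat, the acetyltransferase of the complex, was lower, at 0.552, 0.455 and 0.720 against 0.947, 0.565 and 0.643. The kinases Pdk1, Pdk2 and Pdk3 and the carboxylase Pcx also had a gene-end peak in every library. For none of these genes did the values of the days separate.

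In the TCA cycle, 7 of 11 genes were open at an end in all libraries, and Idh1, Idh2 and Mdh1 had no summit assigned to an end. Aco1, the cytosolic aconitase that also serves as an iron sensor, had 2.32, 2.85 and 2.52 at day 0 and 3.05, 2.70 and 2.21 at day 1. Fh1, fumarate hydratase, was as tall, with 2.41, 2.58 and 2.44 against 2.47, 2.70 and 2.50. Sucla2 and Suclg1, subunits of succinyl-CoA ligase, stood below the typical height in every library except Suclg1 in day 1 replicate 3, at 1.21. Mdh2, mitochondrial malate dehydrogenase, lacked an assigned summit in day 1 replicate 1 because that summit, of height 1.58, lay nearer to the end of Styxl1, 158 bp from Mdh2.

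Of the NADPH and pentose phosphate genes, 5 of 10 were open at an end in all libraries: Tkt, Taldo1, Rpia, Me2 and Mthfd1. Rpia, which interconverts pentose phosphates, reached 2.30, 2.42 and 2.00 at day 0 and 2.53, 2.22 and 2.43 at day 1. G6pdx, the first and NADPH-yielding enzyme of the path, was low at 0.552, 0.455 and 0.480 at day 0, and stood at 0.737 and 0.783 in the day 1 libraries that had a peak, with none in replicate 3. The cytosolic malic enzyme Me1 had weak peaks in 2 of 3 libraries of each day, 0.322 and 0.212 against 0.421 and 0.391. Me3, a mitochondrial malic enzyme, had 0.299 and 0.280 in 2 day 0 libraries and none at day 1. Me2, the other mitochondrial form, was tall in comparison, at 1.63, 1.52 and 1.76 against 1.95, 2.04 and 2.21. Each day 1 value of Me2 exceeded each day 0 value, but the log2 difference of 0.34 ± 0.16 (SE) did not pass (limma adjusted p = 0.159). Mthfd1l, the mitochondrial formate enzyme, had 2.53, 2.82 and 2.16 at day 0 and 2.57 and 2.86 at day 1. Its summit in day 1 replicate 1 lay 1020 bp inside the gene, just past the 1 kb limit, against 948 to 980 bp in the other libraries.

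Other members just inside the limit were Tpi1, with a second end region at a median of 978 bp, and Pdk2, with one at 962 bp, and the nearest outside were Cs at 1507 bp and Aldoa at 1692 bp. A gene-end peak stood in more day 0 than day 1 libraries for 8 of the 46 genes (17.4%), against 21% of all coding genes. The reverse held for none of the 46, against 3.12%. In equal lists, 19 genes (41.3%, against 15.4%) had a gene-end peak in all 6 libraries and 13 (28.3%, against 63.4%) in none. There, 10 genes (21.7%) had one in more day 1 libraries, against 14.3%, and 3 (6.52%) in more day 0 libraries, against 4.5%. Dlat, Gpi1, Pdk3, Pkm and Tkt had an equal-list peak in 3 of 3 day 1 and at most 1 of 3 day 0 libraries (10.9% of the 46, against 3.22%), and the mirror pattern was met by 0, against 0.731%. All 5 of these genes had a deposited peak in every library of both days, and an equal list keeps the whole list of day 1 replicate 3 but only the top of each longer list. Where limma gave a value at these ends, the log2 difference was between -0.02, at Tkt, and 0.31, at Dlat, and none passed.

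An absent gene-end peak did not always mean a closed gene start. RefSeq promoter windows, from 250 bases before to 50 after each listed transcription start on GRCm38.p6, were matched for 44 of the 46 genes, and 15 of these have several starts. A window was covered by a peak in all 6 libraries for 34 of the 44 genes (77.3%), against 29.0% of 17491 coding genes with a listed start. No window was covered in any library for Aldoc, Eno1, Hk2 and Pgd, 4 of 44 genes (9.09%), against 49.2%. Among CpG-rich windows alone, as defined below, the gap was smaller. Of those, 75% of the member windows were covered in all 6 libraries, against 48.9% of the windows of all coding genes. By library, 40, 38 and 39 genes had a covered start at day 0 and 37, 39 and 35 at day 1 (exact two-sided permutation p = 0.3). Over all coding genes with a listed start, the share was 43.4% to 48.8% per day 0 library and 31.5% to 41.9% per day 1 library. In equal lists these counts were 26, 28 and 27 against 34, 37 and 35, without overlap (exact two-sided permutation p = 0.1, the smallest possible). The equal-list share of all coding genes was also higher at day 1, 31.5% to 34.7% against 26.0% to 28.3%.

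Hk1, hexokinase 1, has a listed start at the outer end of the gene, where no library had a peak, and another far inside it, where the summit lay 39.6 kb from that end. The peak over the inner start was the tallest of any member region by day 0 mean, with relative heights of 2.78, 3.00 and 3.08 at day 0 and 3.16, 2.74 and 2.43 at day 1. Aldoa, aldolase A, repeated this arrangement: no peak over the outermost start, and a peak of 0.874, 1.36 and 1.32 against 1.32, 1.39 and 1.07 over a start 1.69 kb from the gene end. The ranges of the days overlapped at both inner starts. The windows at the outer and inner starts are printed because they show which of several listed starts was open. Sequences are from RefSeq, 5′ to 3′ on the strand of the gene, in lower case. Capitals mark any match on either strand to 9 motifs, none of which lies within another: the E-box CACGTG, the cAMP response element TGACGTCA, the AP-1 site TGACTCA, the CCAAT box, the Sp box GGGCGG, the C/EBP site TTGCGCAA, the RUNX core TGTGGT, the ETS core CCGGAAG, and the palindromic NRF-1 motif.
Hk1 outer start, chr10:62379859-62380158, minus strand: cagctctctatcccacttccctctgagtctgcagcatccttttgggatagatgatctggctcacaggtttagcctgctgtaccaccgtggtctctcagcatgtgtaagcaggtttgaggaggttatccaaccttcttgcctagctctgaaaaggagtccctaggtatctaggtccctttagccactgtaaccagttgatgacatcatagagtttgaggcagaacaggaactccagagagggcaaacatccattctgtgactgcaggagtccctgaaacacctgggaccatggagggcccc
Hk1 inner start, chr10:62340372-62340671, minus strand: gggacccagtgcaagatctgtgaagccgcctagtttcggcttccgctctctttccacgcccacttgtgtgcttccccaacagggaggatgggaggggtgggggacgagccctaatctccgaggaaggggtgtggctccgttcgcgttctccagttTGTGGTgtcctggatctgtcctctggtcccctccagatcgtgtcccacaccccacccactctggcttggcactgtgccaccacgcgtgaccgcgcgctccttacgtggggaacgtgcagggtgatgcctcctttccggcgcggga
Aldoa outer start, chr7:126800398-126800697, minus strand: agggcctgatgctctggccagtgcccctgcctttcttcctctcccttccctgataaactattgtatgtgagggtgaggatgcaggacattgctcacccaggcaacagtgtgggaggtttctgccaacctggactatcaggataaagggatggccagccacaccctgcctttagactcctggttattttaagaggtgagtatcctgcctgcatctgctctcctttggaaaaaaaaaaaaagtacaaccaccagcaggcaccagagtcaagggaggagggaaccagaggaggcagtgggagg
Aldoa inner start, chr7:126799205-126799504, minus strand: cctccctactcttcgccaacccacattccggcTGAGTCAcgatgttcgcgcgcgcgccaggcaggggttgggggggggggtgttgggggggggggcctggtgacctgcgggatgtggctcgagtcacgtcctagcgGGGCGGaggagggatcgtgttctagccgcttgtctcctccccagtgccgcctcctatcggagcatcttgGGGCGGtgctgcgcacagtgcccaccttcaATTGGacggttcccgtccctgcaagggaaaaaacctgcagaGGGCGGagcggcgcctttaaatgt
The outer windows of Hk1 and Aldoa hold few CpG dinucleotides, with observed to expected ratios of 0.0507 and 0, and none of the motifs. The inner windows have ratios of 0.665 and 0.751. The Hk1 inner window holds a single TGTGGT, the core that RUNX proteins are known to bind; the Aldoa inner window holds matches to the AP-1 site, the CCAAT box and the Sp box.

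Idh2 and Ldha are listed with their first start inside the annotated gene as well. Idh2, mitochondrial NADP-linked isocitrate dehydrogenase, had a peak over its listed start, 3.21 kb from the gene end, of 0.644, 0.697 and 0.520 at day 0 and 0.789, 0.826 and 0.714 at day 1. All 3 day 1 values stood above the day 0 values, and the log2 difference of 0.33 ± 0.24 (SE) did not pass (limma adjusted p = 0.391). Ldha, the lactate dehydrogenase subunit that favours lactate formation, had a peak over its first listed start of 0.552, 0.545 and 0.480 at day 0, and of 0.739 and 0.929 in day 1 replicates 2 and 3 with none in replicate 1. The promoter windows of these starts follow, with those of Gpi1 and Pdk3, whose start peaks fell inside the equal lists at day 1 alone although all 6 deposited lists hold them, and of Hk2, whose start had no peak in any library.
Idh2 start, chr7:80115301-80115600, minus strand: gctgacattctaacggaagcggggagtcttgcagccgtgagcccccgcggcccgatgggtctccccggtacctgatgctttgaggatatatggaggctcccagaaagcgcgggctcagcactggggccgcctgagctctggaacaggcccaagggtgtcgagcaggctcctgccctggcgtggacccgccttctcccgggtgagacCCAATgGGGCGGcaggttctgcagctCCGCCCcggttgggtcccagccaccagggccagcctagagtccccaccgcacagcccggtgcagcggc
Ldha start, chr7:46845554-46845853, plus strand: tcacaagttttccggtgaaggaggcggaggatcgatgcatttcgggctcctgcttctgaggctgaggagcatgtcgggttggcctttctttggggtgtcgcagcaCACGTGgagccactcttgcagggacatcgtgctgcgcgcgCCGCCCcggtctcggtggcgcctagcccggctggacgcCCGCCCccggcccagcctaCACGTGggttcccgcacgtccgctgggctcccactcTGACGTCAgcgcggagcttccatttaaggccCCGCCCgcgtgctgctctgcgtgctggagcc
Gpi1 start, chr7:34230287-34230586, minus strand: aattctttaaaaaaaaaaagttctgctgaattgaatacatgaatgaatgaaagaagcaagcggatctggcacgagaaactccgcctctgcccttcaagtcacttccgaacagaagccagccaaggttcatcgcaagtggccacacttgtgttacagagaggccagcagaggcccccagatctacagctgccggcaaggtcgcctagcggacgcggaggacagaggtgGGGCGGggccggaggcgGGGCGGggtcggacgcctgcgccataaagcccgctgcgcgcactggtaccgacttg
Pdk3 start, chrX:93832101-93832400, minus strand: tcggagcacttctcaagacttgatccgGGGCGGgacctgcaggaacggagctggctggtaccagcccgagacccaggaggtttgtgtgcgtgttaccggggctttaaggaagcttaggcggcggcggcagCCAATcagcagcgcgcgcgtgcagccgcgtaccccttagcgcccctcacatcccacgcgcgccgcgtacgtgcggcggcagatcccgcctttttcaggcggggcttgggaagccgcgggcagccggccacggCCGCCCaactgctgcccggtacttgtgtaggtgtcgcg
Hk2 start, chr6:82774405-82774704, minus strand: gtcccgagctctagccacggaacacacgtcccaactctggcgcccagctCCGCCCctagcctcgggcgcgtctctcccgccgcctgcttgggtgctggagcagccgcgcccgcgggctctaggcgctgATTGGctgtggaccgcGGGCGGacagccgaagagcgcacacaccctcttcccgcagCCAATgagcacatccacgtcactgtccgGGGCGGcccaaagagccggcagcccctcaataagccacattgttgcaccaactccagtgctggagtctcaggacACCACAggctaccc
The Ldha window holds a pair of CACGTG matches, the E-box bound by Myc and USF proteins among others, and a TGACGTCA. Shares are given for the 67 member windows, the 21262 windows of all coding genes and those of the latter covered in all 6 libraries; windows of 1 gene can overlap. CACGTG occurred in 11.9%, 7.84% and 10.8%. TGACGTCA occurred in 7.46%, 2.23% and 3.69%, the member share being 5 windows of 3 genes. Ogdh, a TCA cycle gene with overlapping windows, supplied 3 of the windows with each of these motifs. GGGCGG occurred in 64.2%, 46.2% and 73.9%. TGTGGT occurred in 14.9%, 15.0% and 11.2%, and CCGGAAG in 2.99%, 11.6% and 24.6%. CCAAT stood in 46.3%, 38.2% and 46.6%, and TGACTCA in 2.99%, 4.66% and 2.87%. TTGCGCAA stood in 1.49%, 0.221% and 0.426%, and the NRF-1 motif in 1.49%, 1.33% and 2.45%. The third share is matched by that of the 41 member windows covered in all 6 libraries. In those, GGGCGG occurred in 82.9%, CCAAT in 51.2%, TGTGGT in 14.6%, and CACGTG and TGACGTCA in 9.76% each. TGACTCA, TTGCGCAA and CCGGAAG occurred there in 2.44% each, and the NRF-1 motif in none. A match describes letters and not a bound site.

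Hk2, Eno1 and Pgd differ from Hk1 and Aldoa in that no listed start was covered. Hk2 encodes the insulin-responsive hexokinase 2, Eno1 enolase, and Pgd the second NADPH-yielding enzyme of the pentose phosphate path. Their windows include CpG-rich ones, defined as at least 55% G and C with a CpG ratio of at least 0.6; the Hk2 window has 67.3% and 0.757. Among CpG-rich windows of all coding genes, 20.6% had no peak in any library, and among the 44 such windows of members 6 did, at Eno1, Hk2, Pdk2, Pgd and Pkm. Pdk2 and Pkm had a covered start besides. How reads that map to several places were handled is not given in the sources used here.

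For Idh1, Mdh1 and Pfkm, the missing gene-end peak came from the rule of the nearest gene. Summits 151 to 212 bp from the Idh1 end lay still closer to Pikfyve, and had heights of 1.24, 1.39 and 1.04 at day 0 and 1.26, 1.39 and 1.14 at day 1. At Mdh1, summits within 50 to 120 bp were nearer to Wdpcp, with 1.77, 1.97 and 1.92 against 1.89, 1.74 and 1.93. A Pfkm end shared its summits, 716 to 897 bp away, with Senp1, at 0.759, 1.12 and 0.840 against 0.842, 1.57 and 1.00. Within 1 kb of all 3 ends a peak stood in every library of both days. The window of the outermost listed Pfkm start was itself covered in no library. Windows of inner Pfkm starts, at chr15:98108471 and chr15:98108556, were covered in all 6. Aldoc likewise had one in all 6 libraries that was nearer to Pigs, at 0.483, 0.667 and 0.640 against 0.842, 0.565 and 0.714.

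Distal peaks near these genes were fewer at day 1 in the deposited lists and made up a larger share of the distal peaks of the library. In deposited lists, 111, 82 and 79 distal peaks lay nearest to one of the 46 genes at day 0, and 41, 57 and 30 at day 1 (90.7 ± 17.7 and 42.7 ± 13.6, SD, n = 3 each). The ranges did not overlap, and the exact two-sided permutation p of 0.1 is the smallest possible. Day 1 lists were shorter throughout, so the same peaks were set against all distal peaks of the library. These genes took 0.304% (95% exact binomial interval 0.250 to 0.366), 0.310% (0.247 to 0.385) and 0.323% (0.255 to 0.402) of the distal peaks at day 0. At day 1 they took 0.394% (0.283 to 0.534), 0.454% (0.344 to 0.588) and 0.549% (0.371 to 0.783). The share was higher in each day 1 library than in each day 0 library (0.312 ± 0.00936% and 0.466 ± 0.0785%, SD, n = 3 each; exact two-sided permutation p = 0.1). The single-library intervals, which cover counting error only, overlap between the days. With listed inner starts counted as gene ends, the shares were 0.288%, 0.287% and 0.281% against 0.336%, 0.439% and 0.419%.

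In equal lists the distal peaks numbered 20, 22 and 22 at day 0 and 27, 28 and 30 at day 1 (21.3 ± 1.15 and 28.3 ± 1.53, SD, n = 3 each; exact two-sided permutation p = 0.1). With lists of 6000 peaks the order turned, to 11, 13 and 11 against 10, 9 and 9 (exact two-sided permutation p = 0.1). The days overlapped at -log10 q of at least 5, with 15, 15 and 15 against 19, 15 and 16 (p = 0.4, same exact permutation test), and with lists ranked by fold enrichment, with 23, 24 and 24 against 24, 28 and 30 (p = 0.3, same exact permutation test).

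Merging the peaks of all libraries gave 200 regions near the 46 genes, of which 44 lay at gene ends and 156 were distal. The distal regions lay near 35 genes: 90 inside the gene, 33 upstream, 30 downstream and 3 beside genes with no strand listed. A peak in all 6 libraries was found at 13 of them, and 59 were found in 1 library alone. Within 1 kb of a listed start of their own gene lay 9 of the 156, among them 5 of the 13. Aldoc, Dlat, Fh1, Gapdh, Idh3a, Pdhb, Pdk2, Pfkm, Pgd, Pgk1 and Tpi1 had no distal region. Over all 200 regions, 31 were day 0 only in the deposited lists (15.5%, against 17.5%) and 8 day 1 only (4%, against 0.607%). In the deposited lists, 30 distal regions (19.2%) near 17 genes had a peak in 3 of 3 day 0 and 0 of 3 day 1 libraries, against 19.5% of all distal regions. The mirror class held 8 distal regions (5.13%) near 7 genes, against 0.702%.

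Distal regions were spread unevenly over the genes. Mthfd1l, which spans 194 kb, had 18, with 13, 9 and 10 peaks at day 0 and 6, 5 and 2 at day 1. Pfkfb3, of 82.6 kb, had 15, with 10, 9 and 10 peaks against 6, 10 and 7. Me3, of 222 kb, had 13, with 11, 6 and 7 peaks against 1, 1 and 0. Slc2a1, of only 28.6 kb, had 8, with 8, 6 and 5 peaks against 1, 2 and 0. Pdha1 and Rpia had 7 each, with 4, 5 and 2 against 1, 1 and 1 at Pdha1 and 5, 3 and 2 against 2, 3 and 0 at Rpia. At Me3, 5 of the 13 distal regions were day 0 only in the deposited lists, as were 5 of 18 at Mthfd1l and 3 of 8 at Slc2a1. The other genes of this list had fewer, 1 of 15 at Pfkfb3 and 1 of 7 at each of Pdha1 and Rpia. Over all distal regions of any gene the share was 19.5%.

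**Figure D3:**
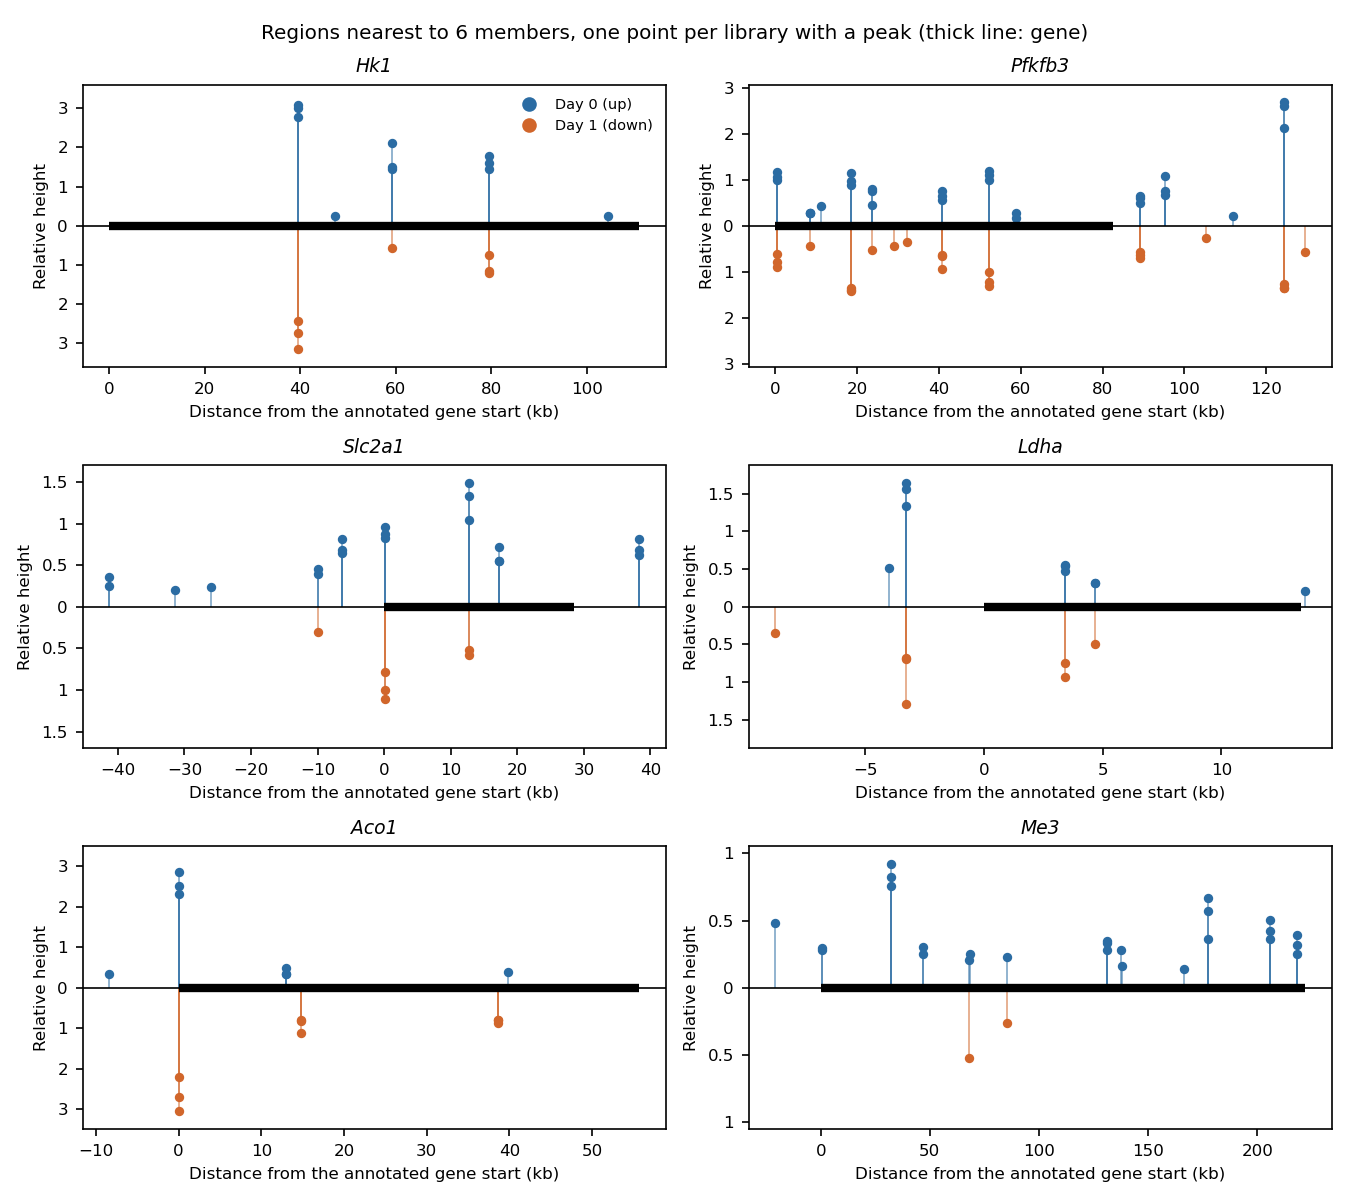
Distance from the annotated gene start in kb (x) and relative summit height (y) of every region nearest to Hk1, Pfkfb3, Slc2a1, Ldha, Aco1 and Me3, with 1 point per library that has a peak, day 0 upward in blue and day 1 downward in orange; the thick line is the gene. Slc2a1 and Me3 show day 0 points with few day 1 partners, Aco1 shows 2 inner positions with day 1 points alone, and the Hk1 point at 39.6 kb is tall on both days.

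Of the regions strong enough for the equal lists, 86 lay near 40 members, and 5 of these (5.81%, against 9.11% of all regions) were day 0 only there, all of them among the 48 distal ones (10.4%, against 12.5%). The Hk1 region chr10:62320331-62320994, 51.7 kb inside the gene from its far end, had relative heights of 1.49, 2.12 and 1.44 at day 0 and a weaker peak of 0.565 in day 1 replicate 2 alone. A region 12.7 kb downstream of Pfkfb3, chr2:11458589-11458913, had 0.667, 1.09 and 0.760 at day 0 and no day 1 peak. Inside Slc2a1, chr4:119121317-119121640 gave 1.33, 1.48 and 1.04 at day 0, and 0.579 and 0.522 in day 1 replicates 1 and 2. Another Slc2a1 region, 9.69 kb downstream, had 0.621, 0.818 and 0.680 and no day 1 peak. The Me3 region chr7:89664158-89664591, 32.1 kb inside the gene, had 0.828, 0.758 and 0.920 and none at day 1.

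Day 1 only regions of the equal lists numbered 9 of 86 (10.5%, against 5.71% of all regions), of which 6 were distal (12.5% of 48, against 6.46%). The tallest lay at one end of Idh3a, a subunit of the NAD-linked isocitrate dehydrogenase of the TCA cycle, at chr9:54604079-54604522. Its relative heights were 1.58, 1.35 and 1.43 at day 1, against 0.230 in day 0 replicate 1 and no peak in the other day 0 libraries. The summit of that day 0 peak lay nearer to the neighbouring Acsbg1. At the other end of Idh3a, whose strand is not listed, the heights were 0.989, 1.00 and 1.16 against 1.05, 1.04 and 1.07, with a log2 difference of 0.01 ± 0.20 (SE).

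No day 0 library had a peak at 5 further positions of this class. Inside Aco1, chr4:40157637-40158428 and chr4:40181669-40182065 had 1.11, 0.826 and 0.786, and 0.789, 0.870 and 0.786, in the 3 day 1 libraries. A region 9.16 kb upstream of Pdha1, chrX:160147255-160147779, had 1.00, 0.913 and 0.857. Inside Me1, 56.9 kb from its start, chr9:86638890-86639146 had 0.737, 0.565 and 0.643. Inside Pfkp, the platelet-type phosphofructokinase, chr13:6639322-6639859 had 0.684, 0.696 and 0.571. The remaining 3 regions of the class, at Gpi1, Pdk3 and Idh2, had deposited peaks in all 6 libraries.

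The 8 day 1 only regions of the deposited lists were these 5 and 1 each inside Mthfd1l, Taldo1 and Tkt. The Tkt region, 4.20 kb from the start of that transketolase gene, had 0.895, 0.565 and 0.929. The Taldo1 region, 2.18 kb inside the transaldolase gene, had 0.632, 0.783 and 0.643, and the Mthfd1l region 0.579, 0.696 and 0.857. Of the 8, 7 lay inside the gene and 1 upstream. With peaks of -log10 q of at least 5 alone, 4 of 119 distal regions remained in the class, near Aco1, Me1, Mthfd1l and Pdha1 (3.36%, against 0.757%). Without day 1 replicate 3 there were 13 of 155 (8.39%, against 1.99%).

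Signal was compared where every library had a peak. Of 9136 such regions, 44 lay near 35 members, 31 at gene ends and 13 distal. After scaling each library to its median over these regions, limma called none of the 44 higher at day 1 and 3 lower, against 8% higher and 6.98% lower of all shared regions. At an unadjusted limma p under 0.05, 7 of the 44 passed, against 2461 of all 9136 shared regions. All 3 calls were distal: 3 of 13, against 13.8% lower and 12.6% higher among all shared distal regions within 100 kb. Of the 13, 5 lay within 1 kb of a listed start of their own gene, and none of the calls did. At gene ends, 0 of 31 were called in either direction, against 4.75% higher and 1.77% lower. The median log2 difference was 0.09 over the member gene ends, from -0.51 to 0.34, and 0.08 over all shared gene ends.

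**Figure D4:**
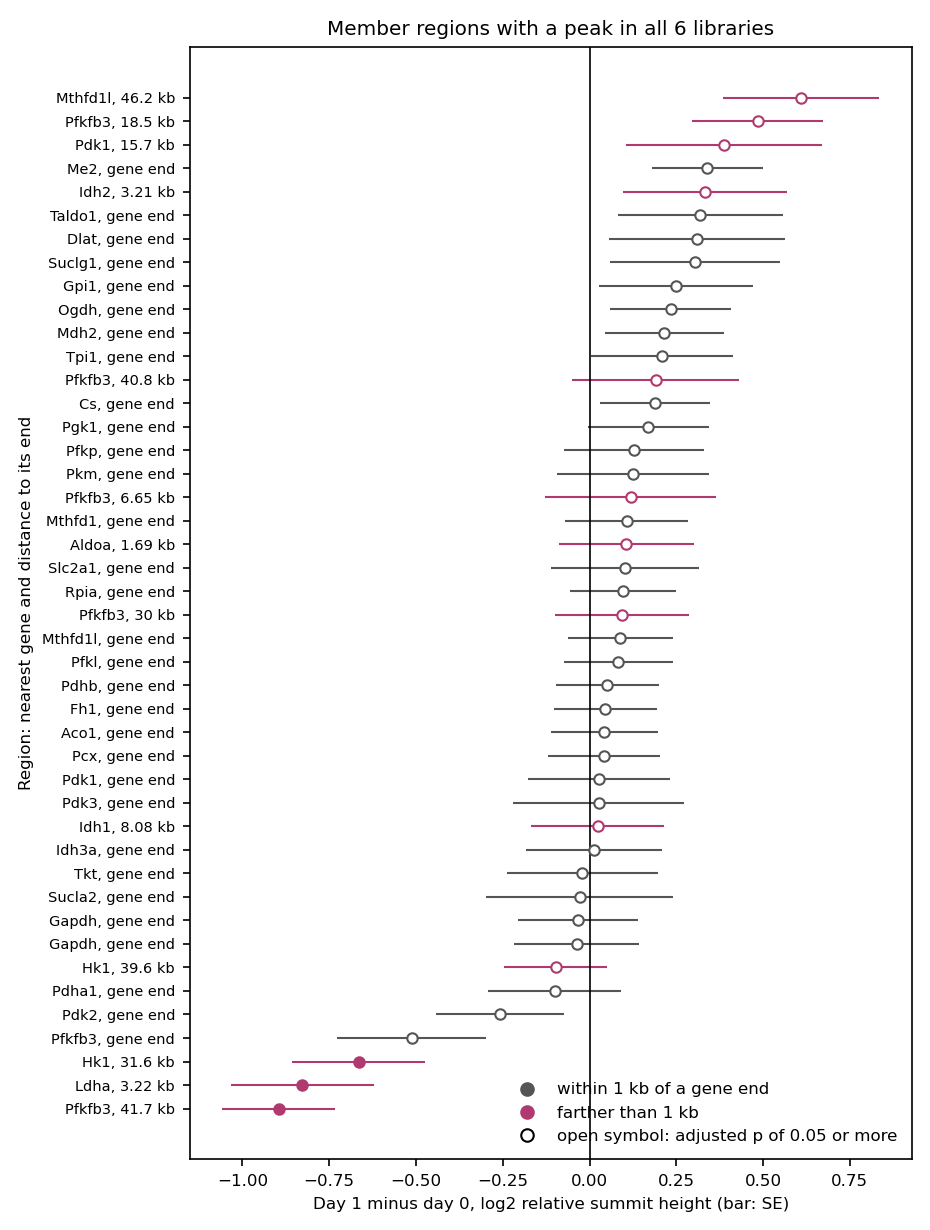
Each row is 1 of the 44 regions with a peak in all libraries, named by its gene and, for distal regions, the distance of the summit to the gene end; the point is the log2 difference of relative summit height, day 1 minus day 0, and the bar is its SE from limma (n = 3 per day). Grey is gene end, magenta distal, and filled symbols passed an adjusted p of 0.05; the filled points are the lowest 3, near Pfkfb3, Ldha and Hk1.

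The largest fall was at chr2:11429556-11430008, 41.7 kb downstream of Pfkfb3. It reached 2.69, 2.61 and 2.12 at day 0, with 1.26, 1.35 and 1.36 at day 1, a log2 difference of -0.90 ± 0.16 (SE; limma adjusted p = 3.2e-05). The days are far apart there, and the day 1 height is still above that of a typical shared region. Not all Pfkfb3 regions moved this way: inside the gene, 18.5 kb from its start, the peaks had 1.15, 0.970 and 0.880 at day 0 against 1.42, 1.39 and 1.36 at day 1, a difference of 0.48 ± 0.19 (SE) that did not pass (limma adjusted p = 0.0751).

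Upstream of Ldha, 3.22 kb from the gene end, chr7:46838690-46839311 had 1.56, 1.33 and 1.64 at day 0 and 0.684, 0.696 and 1.29 at day 1. The log2 difference was -0.83 ± 0.21 (SE; limma adjusted p = 0.0028). Day 1 replicate 3 stood close to the day 0 values, and the others well below. Inside Hk1, 31.6 kb from its far end, chr10:62299837-62300749 had 1.45, 1.79 and 1.60 against 1.16, 0.739 and 1.21, a log2 difference of -0.67 ± 0.19 (SE; limma adjusted p = 0.0108). The tall peak at the inner Hk1 start, in contrast, did not pass, at -0.10 ± 0.15 (SE).

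These 3 calls depend on the scale. With heights per 1000000 fragments, which moves the median of all shared regions to -0.15, the 3 differences were -1.09, -1.03 and -0.86 and none passed (limma adjusted p = 0.407, 0.482 and 0.756). With the authors' fold enrichment they were -0.25, -0.45 and -0.26 and none passed (limma adjusted p = 0.319, 0.149 and 0.474). The Hk1 call was also lost without day 0 replicate 2, day 0 replicate 3 or day 1 replicate 2 (limma adjusted p = 0.0854, 0.0566 and 0.132). The closest region in the other direction lay inside Mthfd1l at chr10:4120740-4121204. It had 0.782, 0.606 and 0.720 at day 0 and 0.789, 1.13 and 1.36 at day 1, a difference of 0.61 ± 0.22 (SE; limma adjusted p = 0.0568), and it passed under 4 of 13 alternatives.

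Of 48 genes of the same pathways that are not among the 46, 14 (29.2%) were open at a gene end in all 6 libraries, against 23.5% of all coding genes, and 20 (41.7%) in none, against 49.8%. Of 28 shared regions near the 48 genes, limma called 3 higher and none lower, against the 8% and 6.98% above. Near Pdp1, whose phosphatase reactivates pyruvate dehydrogenase, a region 64.4 kb away had 0.299, 0.606 and 0.520 at day 0 and 0.895, 0.783 and 1.36 at day 1, a log2 difference of 1.11 ± 0.26 (SE; limma adjusted p = 0.0012). At the end of Sdha, a succinate dehydrogenase subunit, heights were 0.506, 0.303 and 0.400 against 0.737, 0.652 and 0.643, a difference of 0.78 ± 0.26 (SE; limma adjusted p = 0.0318). A region 13.7 kb from Pdk4, a kinase that switches pyruvate dehydrogenase off, had 0.529, 0.333 and 0.520 against 0.737, 0.783 and 0.714, a difference of 0.72 ± 0.25 (SE; limma adjusted p = 0.0424). At all 3 regions every day 1 value lay above every day 0 value. The regions were picked by the call, so this separation is not further evidence. All 3 were low at day 0, from 0.299 to 0.606. The calls rest on the median scaling. With heights set against the fragment total of each library, limma called 30 of all shared regions higher, against 731. Whether these 3 calls hold on that scale was not tested.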

How the data were processed

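The 46 genes and the gene lists were chosen with earlier results of these data known. ATAC-seq libraries from brown pre-adipocytes of a BAT line, 3 at day 0 and 3 at day 1, were made with a TruePrep transposase kit, per the labels' protocols. HOMER 4.11, DiffBind 3.8.4, deepTools 3.5.1, Bowtie2 2.4.4, SAMtools 1.15.1 and Trim Galore 0.6.7 are named without roles in the submitters' processing notes, with mm10. Peaks were called per library with MACS2 2.2.7.1 from paired-end fragments, with no control and a q cutoff of 0.05, per the file headers. The deposited pileup is a signal, the whole fragments at the summit, not scaled to depth. The deposited −log10 p and −log10 q values and the fold enrichment ratio weigh the summit against local background within a library and are the authors' own. The deposited length of a peak is in bp.

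Peaks of the autosomes, X and Y were assigned by summit to the nearest end of 21883 coding genes (RefSeq, GRCm38.p6, the assembly mm10 names), within 100 kb. Overlapping peaks (1 bp or more) formed 68913 merged regions. Equal lists kept 12556 peaks by q; absence there means lower rank. Summit pileup plus 1, as log2, was centred on the library median over 9136 shared regions and fitted with limma 3.58.1 (R 4.3.3, trended variance, Benjamini-Hochberg, threshold 0.05). The fit was tried on simulated data with planted changes larger than any reported here, so that trial does not speak to smaller ones. The pseudocount understates changes of low regions. An exact two-sided permutation test compared the counts between days. Shares of the 46 genes and of all genes or regions are set side by side as descriptions, with no test.

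Values in every library are given by rule for genes called on 1 day and at most once on the other, regions past the limma threshold, the strongest day 0 only and day 1 only equal-list regions, the genes with most distal regions and those with no gene-end peak. Other values, the start windows, the share of distal peaks, the deposited distal classes and the printed windows of Hk1, Aldoa, Ldha and Hk2 were chosen after the data were seen. Presence calls are limited where lists are short, most of all at day 1. List length did not follow depth alone: day 1 replicate 3 had the most fragments of its day, 7302457, and the shortest list, 12556. What set list length was not tested. The genome sequence was not used here, so exons and introns are not given.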

Additional observations from a re-analysis of the deposited data

How the results depend on the processing

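Direction held for the counts of genes with a gene-end peak (-4.50 to -2.50 with 1 library left out in deposited lists, 1.50 to 6.67 in equal lists, 2.33 at -log10 q of at least 5), for distal peaks in deposited lists (-55.2 to -37.8) and for the share of distal peaks (0.112 to 0.189 percentage points deposited, 0.162 to 0.197 equal). The difference in distal peaks in equal lists was 6.17 to 8.50 with 1 library left out, 1.67 at the same q, 3.67 ranked by fold enrichment and 3.67 with listed starts as gene ends, and turned to -2.33 in lists of 6000 peaks; the cause was not tested. Day 0 only regions of the equal lists numbered 5 to 7 with 1 library left out, 31 in deposited lists and 2 at -log10 q of at least 5. Day 1 only regions numbered 10 to 15 with 1 library left out, the 15 being without day 1 replicate 3 in longer lists, then 4 at that stricter q and 19 when 2 of 3 libraries sufficed. Deposited day 1 only distal regions numbered 8 to 13 with 1 library left out and 4 at the stricter q.

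Member regions called lower were 0 per 1000000 fragments and 0 with fold enrichment, and 2 to 3 with 1 library left out. Member regions called higher were 1, at Mthfd1l, with fold enrichment, a pseudocount of 5, a mean pileup of at least 20 (fewer regions tested) and without day 1 replicate 1, and so 0 to 1 with 1 library left out. Over all shared regions, 731 were higher and 638 lower. The counts were 30 and 48 per 1000000 fragments, 365 and 310 with fold enrichment, 391 higher at a mean pileup of at least 20, and 503 to 703 higher and 410 to 664 lower with 1 library left out (410 without day 0 replicate 3). Per 1000000 fragments the higher share of calls was 38.5% against 53.4%, and at a mean pileup of at least 20 it was 42.5%. The cause of these changes was not tested.

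Replicate numbers are shared by the days, but same-numbered libraries did not deviate together (correlations -0.0336, 0.0582 and 0.0170 over 9136 regions). With the replicate block, 0 member regions were higher and 3 lower, and 762 and 640 of all shared regions. The block changed no member call. For counts per library its smallest exact p is 0.25. Lists were shorter at day 1, and a missing peak there is not shown to be a closed site.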
